A study of Homo sapiens with 12 samples.

Results

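Of 12068 genes with a mean of 20 or more normalized counts in each of 4 groups of MDA-MB-468 breast cancer libraries, 92 lay below the control vector without thyroid hormone and above it with hormone. A gene was taken when its mean in cells carrying the receptor vector was at most 0.8 times that of cells carrying the control vector under vehicle, and at least 1.25 times that of the control vector under T3. Symbols that begin with IRF, GBP, HLA- or THRB, and the genes HR and VEGFA, were left out beforehand, which removed 4 genes that met both ratios. The file lists 56832 genes in all. Because these values chose the genes, the receptor against control differences given for them here are a description without a test.

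The line MDA-MB-468 was grown from a human breast cancer of the basal-like class. TRB T3 libraries came from cells with stable expression of thyroid hormone receptor beta from the vector pCDH-TRB, and EV T3 libraries from cells with the control vector pCDH-EV; both were given 10 nM T3 for 24 hours. TRB vehicle and EV vehicle libraries came from the same 2 cell populations given the NaOH vehicle for 24 hours. All cells were first starved of hormone for 24 hours in phenol-red-free medium with charcoal-stripped serum, and each group had 3 libraries. The labels name no separate clones or cultures, so a TRB against EV difference is one between 2 cell populations. The p-values set a difference between groups only against the spread of libraries within the 4 groups, which may be technical.

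Thyroid hormone receptor beta, the product of THRB, is a nuclear receptor that binds DNA mostly as a partner of a retinoid X receptor. At genes it activates, the receptor without hormone is known to recruit corepressors such as NCOR1 with a histone deacetylase, and T3 exchanges these for coactivators. Its best known binding element is a pair of AGGTCA half-sites spaced by 4 bases.

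The receptor gene was high where the labels place it. THRB had 2726, 3018 and 2899 normalized counts in TRB T3 libraries, against 350, 333 and 333 in EV T3 libraries. It had 1263, 1192 and 1237 normalized counts in TRB vehicle libraries, against 383, 374 and 389 in EV vehicle libraries. EV cells thus carried reads from their own THRB gene at every condition, and vector reads cannot be told from these. THRB itself rose with T3 in TRB cells, by log2 1.23 ± 0.04 (edgeR adjusted p = 1.11e-37). In EV cells its change did not pass (-0.18 ± 0.07, edgeR adjusted p = 0.147). The excess of THRB over EV was thus larger with T3 (log2 3.1) than under vehicle (1.69), and its part in the results was not tested. Gene counts came to between 11335783 and 11915181 in TRB T3 libraries, between 10323437 and 11955825 in EV T3, between 7311623 and 8904361 in TRB vehicle, and between 4241863 and 7851876 in EV vehicle libraries. The mitochondrial ribosomal RNA MT-RNR1 took 58.9 to 148 CPM (counts scaled to the library's total) in the 6 T3 libraries and 829 to 7882 in the 6 vehicle libraries, so depth and this RNA moved with T3 in both populations; their part in the T3 effects was not tested. Epithelial identity was plain, with KRT8 between 11647 and 14143 normalized counts in every library, while the leukocyte markers PTPRC, CD3E and LYZ had at most 4. CD14, also listed as a leukocyte marker and itself among the 92, had between 153 and 1699. The labelled basal class was weaker in TRB cells: of 7 basal markers measured, none of them among the 92, all 7 were lower than EV under T3 and 6 under vehicle (19.7% and 7.4% of all genes). Their summed level ran from 4690 to 4880 CPM in TRB T3 libraries and 6790 to 7360 in EV T3, and from 5920 to 5950 in TRB vehicle and 7340 to 7670 in EV vehicle libraries. Most of each sum came from a single gene, so it does not show how far the others differed. The median log2 fold change of the 7, TRB over EV, was -2.09 under T3 and -0.37 under vehicle. What part these shifts have in the results was not tested.

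Relative to EV, the 92 genes had a median ratio of 1.57 with T3, reaching 6.34, and of 0.728 without T3, down to 0.495. Under T3 18 of them were at 2 times EV or more, and under vehicle 13 were at 0.6 times EV or less. Alone, 562 of the 12068 genes met the vehicle condition (4.66%) and 1380 met the T3 condition (11.4%). The mirror pattern, at least 1.25 times EV without T3 and at most 0.8 times with T3, was shown by 49 genes.

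**Figure D1:**
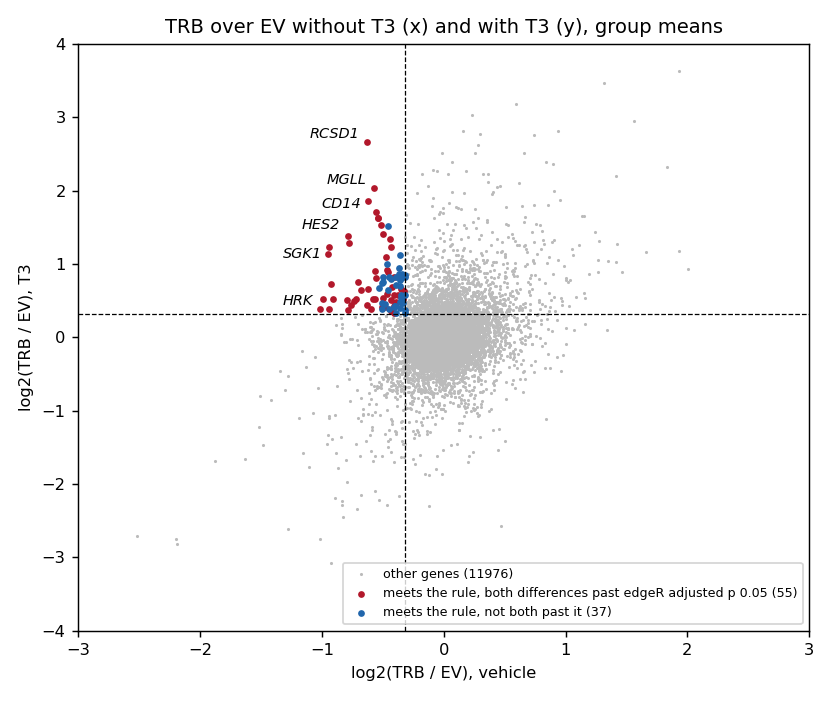
Log2 ratio of group means, TRB over EV, under vehicle (x axis) and under T3 (y axis), for the 12068 genes at or above the floor of 20; 1 gene lies beyond the axes. The 92 genes fill the upper left corner marked by the dashed thresholds (0.8 and 1.25), with RCSD1 highest and HRK farthest left; the 55 red points had both differences past an edgeR adjusted p of 0.05 and the 37 blue ones did not.

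How far each gene stood from the spread between libraries varied widely. In edgeR's quasi-likelihood test, 55 of the 92 were called in both of the differences that chose them, against 1.45% of all genes tested, and nothing is read from that count. In 62 the 3 TRB libraries lay wholly below the 3 EV libraries under vehicle and wholly above them under T3, as in 3.2% of the 12068 genes. Taken alone, the vehicle difference was without overlap in 67 genes and the T3 difference in 85 (16.0% and 23.7% of the 12068 genes). These differences chose the genes, so nothing is read from the overlap counts either. When each of the 12 libraries was left out in turn, 47 of the 92 met the rule every time; 72 met it without TRB vehicle replicate 2 and 77 without EV vehicle replicate 1, the shallowest library.

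MGLL, the gene of monoacylglycerol lipase, which cleaves monoacylglycerols including the endocannabinoid 2-arachidonoylglycerol, was among the clearest cases. It had 2960, 2951 and 2881 normalized counts in TRB T3 libraries, against 701, 700 and 733 in EV T3 libraries. Without hormone it had 364, 335 and 384 in TRB vehicle libraries, against 557, 505 and 550 in EV vehicle libraries. No 2 of the 4 groups overlapped, and the order was TRB T3, EV T3, EV vehicle, TRB vehicle. MGLL thus stood at 4.12 times EV with T3 and 0.672 times EV without it. The gene lies on the minus strand of chromosome 3 at 127689062 to 128052190 (GENCODE 29, GRCh38).

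The smaller of the 2 log2 margins ranked the genes, and it was 0.43 in the median and 0.5 or more in 27. Among named protein-coding genes SGK1, which encodes a kinase of ion transport and survival signalling induced by steroid hormones, led with 309, 333 and 323 normalized counts in TRB T3 libraries, against 121, 145 and 146 in EV T3. Under vehicle SGK1 had 73, 71 and 74 in TRB libraries, against 140, 129 and 149 in EV libraries. All TRB libraries were thus separate from the EV ones, while the EV T3 and EV vehicle libraries overlapped.

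HES2, a basic helix-loop-helix repressor of the Hairy family, had 692, 748 and 708 normalized counts in TRB T3 libraries, against 254, 295 and 276 in EV T3. Under vehicle it had 111, 104 and 109 in TRB libraries, against 180, 197 and 183 in EV libraries. ABCC4, which encodes an exporter of cyclic nucleotides and prostaglandins, had 797, 785 and 790 in TRB T3 libraries, against 315, 310 and 350 in EV T3, and 153, 171 and 151 in TRB vehicle libraries, against 248, 285 and 280 in EV vehicle. For both genes the 4 groups stood apart in the same order as for MGLL. RCSD1, which encodes a protein that binds actin capping protein, had the largest T3 ratio: 631, 639 and 606 in TRB T3 libraries, against 101, 88 and 107 in EV T3, and 43, 47 and 47 in TRB vehicle libraries, against 72, 81 and 59 in EV vehicle.

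**Figure D2:**
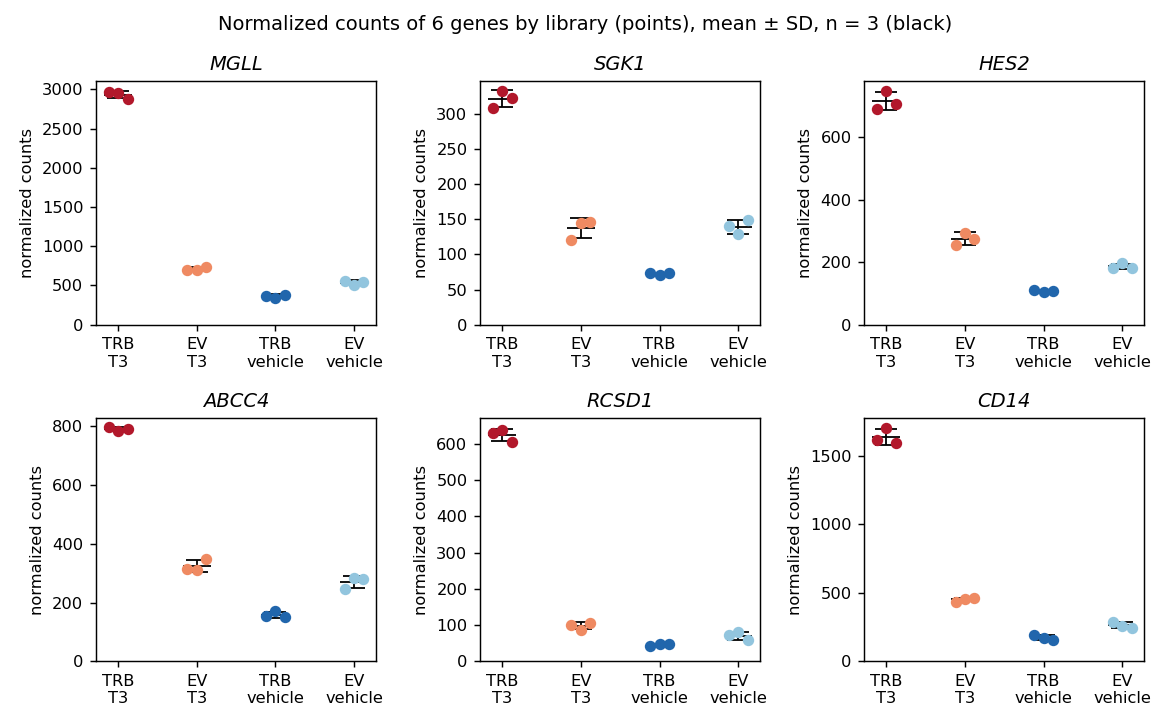
Normalized counts (y axis, linear from 0) of MGLL, SGK1, HES2, ABCC4, RCSD1 and CD14 in TRB T3, EV T3, TRB vehicle and EV vehicle libraries (x axis); points are libraries and black marks are the mean ± SD of 3. In each panel the TRB T3 libraries are highest and the TRB vehicle libraries lowest, with both EV groups between them.

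Signalling and growth genes formed 1 set of 10, grouped by role after their values were seen. With T3 they ranged from 1.26 to 3.26 times EV, and without it from 0.522 to 0.796 times. STC1, which encodes the secreted glycoprotein hormone stanniocalcin 1, had 887, 1023 and 829 normalized counts in TRB T3 libraries, against 284, 294 and 308 in EV T3, and 99, 114 and 108 in TRB vehicle libraries, against 165, 160 and 142 in EV vehicle. All TRB libraries of STC1 lay apart from the EV ones, at 3.09 times EV with T3 and 0.687 times EV without it. CCND1, the cyclin D1 gene that drives G1 progression, was far more abundantly counted and moved less. It had 6066, 5868 and 5625 in TRB T3 libraries, against 3837, 4104 and 4229 in EV T3, and 2414, 2339 and 2369 in TRB vehicle libraries, against 3567, 3417 and 3542 in EV vehicle. The kinase gene PLK3 had T3 and vehicle ratios of 1.76 and 0.679, and the kinase gene PIM1 of 1.31 and 0.662. CHRM3, a muscarinic acetylcholine receptor gene, the WNT ligand gene WNT10A, PORCN, whose product acylates WNT ligands, and the ETS factor gene ETV1 had T3 ratios between 1.26 and 1.83. In PORCN the vehicle libraries overlapped, at 39, 53 and 55 in TRB and 68, 52 and 66 in EV.

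Innate immunity and cell death genes came to 7. CD14, a coreceptor for lipopolysaccharide, had 1614, 1699 and 1589 normalized counts in TRB T3 libraries, against 436, 456 and 462 in EV T3, and 191, 171 and 153 in TRB vehicle libraries, against 288, 256 and 247 in EV vehicle. CD14 is also a monocyte marker, and of the 5 leukocyte markers examined it was the only one high enough to be tested. TNFAIP2, a gene induced by tumour necrosis factor, had 4183, 4271 and 4197 in TRB T3 libraries, against 3131, 2895 and 2740 in EV T3, and 1517, 1551 and 1662 in TRB vehicle libraries, against 2393, 2395 and 2286 in EV vehicle. NLRC5, a regulator of major histocompatibility class I genes, and CTSS, a lysosomal protease that trims class II invariant chain, stood at 1.4 and 1.5 times EV with T3 and at 0.762 and 0.726 times EV without it. The TRAIL receptor genes TNFRSF10A and TNFRSF10D, the second a decoy receptor without a working death domain, stood at 1.5 and 2.86 times EV with T3; in both the TRB vehicle and EV vehicle libraries overlapped or touched. HRK, a BH3-only activator of apoptosis, had the lowest vehicle ratio of all, at 30, 31 and 31 in TRB vehicle libraries, against 51, 62 and 73 in EV vehicle. Under T3 HRK had 114, 109 and 99 in TRB libraries, against 79, 83 and 84 in EV libraries.

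Adhesion and matrix genes also came to 7, with T3 ratios between 1.31 and 2.52. L1CAM, a neural cell adhesion molecule, had 222, 179 and 154 normalized counts in TRB T3 libraries, against 130, 119 and 136 in EV T3, and 60, 47 and 39 in TRB vehicle libraries, against 93, 92 and 105 in EV vehicle. TNC and ITGA3, the genes of the matrix protein tenascin C and of integrin alpha 3, a laminin receptor chain, reached 2.52 and 2.35 times EV with T3 and stood at 0.735 and 0.74 times EV without it. TIMP3, an inhibitor of matrix metalloproteinases, had 398, 352 and 316 in TRB T3 libraries, against 263, 265 and 286 in EV T3, and 111, 124 and 110 in TRB vehicle libraries, against 229, 215 and 220 in EV vehicle. P3H2 encodes a collagen prolyl 3-hydroxylase and COL7A1 the anchoring fibril collagen; their T3 ratios were 1.58 and 1.35. In COL7A1 the T3 libraries overlapped, at 39, 43 and 63 in TRB and 44, 38 and 25 in EV.

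Lipid and metabolic genes other than MGLL were moderate. With T3, the 12 of this set ranged from 1.26 to 4.12 times EV. RARRES3, which encodes a phospholipid-metabolizing enzyme, had 3890, 3881 and 3682 normalized counts in TRB T3 libraries, against 2726, 3025 and 2833 in EV T3, and 1588, 1710 and 1501 in TRB vehicle libraries, against 2264, 2362 and 2195 in EV vehicle. AMPD2, an AMP deaminase gene, and OSBP2, an oxysterol-binding protein gene, showed no overlap on either side, with T3 ratios of 1.5 and 1.44. SULT1A2, a phenol sulfotransferase gene, sat on the vehicle threshold with overlapping libraries, 18, 22 and 20 in TRB vehicle and 36, 21 and 18 in EV vehicle. Its near-identical paralogs could share reads with it, so its value is uncertain. The transporter genes ABCC4, SLC22A4, SLC1A1 and SLC45A3 had T3 ratios between 1.36 and 2.43.

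The next sequences show what stands at the starts of these genes: the promoters of CD14 and RCSD1, whose T3 ratios were among the highest, and those of PRSS27 and TNFAIP2, which hold an AGGTCA half-site. PRSS27, a membrane-anchored serine protease gene, had 218, 225 and 190 normalized counts in TRB T3 libraries, against 158, 159 and 122 in EV T3, and 29, 30 and 36 in TRB vehicle libraries, against 49, 66 and 63 in EV vehicle. Each sequence runs from 250 bases before to 50 after a transcription start in RefSeq (GRCh38.p14), read 5′ to 3′ on the gene's strand, which is minus for PRSS27 (chr16:2720175-2720474) and CD14 (chr5:140633126-140633425) and plus for TNFAIP2 (chr14:103123211-103123510) and RCSD1 (chr1:167629982-167630281). Capitals mark AGGTCA or GGGTCA on either strand; TGACCT is AGGTCA on the opposite strand.
PRSS27: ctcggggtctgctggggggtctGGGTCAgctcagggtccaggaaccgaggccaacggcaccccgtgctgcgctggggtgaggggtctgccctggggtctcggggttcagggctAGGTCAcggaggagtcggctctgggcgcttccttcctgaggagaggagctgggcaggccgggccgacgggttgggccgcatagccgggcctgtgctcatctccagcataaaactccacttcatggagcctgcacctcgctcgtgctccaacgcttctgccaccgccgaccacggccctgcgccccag
TNFAIP2: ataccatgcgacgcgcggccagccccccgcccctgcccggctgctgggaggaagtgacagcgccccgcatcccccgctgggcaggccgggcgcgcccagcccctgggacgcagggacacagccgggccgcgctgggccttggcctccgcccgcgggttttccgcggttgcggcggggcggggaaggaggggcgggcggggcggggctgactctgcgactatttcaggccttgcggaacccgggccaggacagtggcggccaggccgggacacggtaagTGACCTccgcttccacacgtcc
CD14: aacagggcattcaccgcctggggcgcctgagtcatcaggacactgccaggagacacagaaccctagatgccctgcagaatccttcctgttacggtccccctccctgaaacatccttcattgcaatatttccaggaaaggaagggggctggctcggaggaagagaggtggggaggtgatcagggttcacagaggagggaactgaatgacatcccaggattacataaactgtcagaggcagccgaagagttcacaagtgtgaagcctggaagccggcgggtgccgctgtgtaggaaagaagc
RCSD1: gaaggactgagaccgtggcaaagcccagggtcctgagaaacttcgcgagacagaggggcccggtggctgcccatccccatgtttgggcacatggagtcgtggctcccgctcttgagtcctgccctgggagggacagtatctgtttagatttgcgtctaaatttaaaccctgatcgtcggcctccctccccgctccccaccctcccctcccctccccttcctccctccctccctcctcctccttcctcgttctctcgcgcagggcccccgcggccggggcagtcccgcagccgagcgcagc

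In PRSS27 the AGGTCA begins 137 bases before the start and a GGGTCA 228 bases before it, and in TNFAIP2 the AGGTCA begins at base 29 after the start. Neither letter string occurs in the CD14 or RCSD1 window. The set of RefSeq promoters used here held 53 of the 92 genes, 4 of them through an older symbol. MGLL was among the genes it did not hold, so the start of MGLL was not searched. AGGTCA on either strand was present for 9 of the 53 genes (17.0%), against 13.4% of 8839 other genes at or above the floor and 16.5% of all 27305 genes with a promoter. GGGTCA was present for 7 of the 53 (13.2%), against 18.6% and 16.9%. Both half-sites in the same direction with 4 bases between them were found in none of the 81 start windows of these genes and in 7 of all 35116 windows. GC content was 64.7% in the median window of these genes, against 65% for the other genes at or above the floor. The median number of CG pairs, a C followed by a G, was 20 in windows of these genes, against 25 for the others. That difference was not tested. These letters in a 300-base window describe the sequence and say nothing about binding elsewhere.

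Whether T3 acts on these genes in cells without added receptor was the comparison least tied to how they were chosen. The rule used EV T3 and EV vehicle means only as denominators. It favours genes low in EV T3 and high in EV vehicle, which leans this comparison towards a lower level with T3. It also favours genes raised by T3 in TRB cells, which can lean the comparison the other way, so all genes are not a matched background. Of 230 other genes at or above the floor called at least 2-fold higher with T3 in TRB cells, 75 (32.6%) rose in EV cells. In EV cells 32 of the 92 genes were called, against 4.54% of all genes: 30 rose with T3 in edgeR's quasi-likelihood test, against 2.84% of the 14549 genes tested, and 2 fell, against 1.7%. The EV T3 libraries lay wholly above the EV vehicle ones in 35 of the 92 and wholly below in 4 (10.4% and 10.5% of the 12068 genes). The median log2 fold change was 0.14, against -0.001 over all genes, and 60 of 92 were above 0. Without EV vehicle replicate 3, 18 of the 92 were called higher, and 180 of all genes against 413 in the full data. DESeq2 called 23 of the 92 and 266 of all genes higher. At an unadjusted p under 0.05, 37 of the 92 were higher without that library and 33 by DESeq2, against 36 in the full data.

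HEG1, which encodes a receptor of endothelial junctions, rose most firmly among the matrix set, with 218, 205 and 233 normalized counts in EV T3 libraries, against 72, 76 and 87 in EV vehicle (log2 fold change 1.45 ± 0.11 SE, edgeR adjusted p = 2.66e-16). ZSWIM4, a zinc finger SWIM domain gene, had 940, 931 and 943 in EV T3 libraries, against 466, 461 and 417 in EV vehicle, a log2 fold change of 1.08 ± 0.06 (edgeR adjusted p = 3.57e-24). Neither gene's EV T3 libraries overlapped the EV vehicle ones. CD14 rose by 0.8 ± 0.07 (edgeR adjusted p = 1.96e-13), YBX2, a germ-cell Y-box RNA-binding protein gene, by 0.93 ± 0.1, STC1 by 0.94 ± 0.1, and PRSS27 by 1.27 ± 0.14 on the log2 scale. MGLL rose by 0.41 ± 0.06 (edgeR adjusted p = 2.74e-07), HES2 by 0.56 ± 0.09 and CCND1 by 0.21 ± 0.04. RCSD1 (0.5 ± 0.14) and ABCC4 (0.25 ± 0.08) passed at edgeR adjusted p = 0.0179 and 0.0465. By DESeq2 neither passed, at log2 fold changes of 0.49 and 0.25 (adjusted p = 0.0566 and 0.143). Without EV vehicle replicate 3 RCSD1 stood at 0.35 (edgeR adjusted p = 0.367) and ABCC4 at 0.27 (edgeR adjusted p = 0.159). The signalling kinase SGK1 (-0.02 ± 0.11), PLK3 (0.01 ± 0.13) and TNC (0.06 ± 0.12) did not pass the test.

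T3 in TRB cells was raised by the choice of genes, so its values are given as a description. The T3 over vehicle ratio of the means was 2.49 in the median gene, at 2 or more in 65 genes and at 4 or more in 20; 85 were called higher, against 22.4% of all genes. RCSD1 stood highest at 13.7 times its vehicle mean, followed by CD14 at 9.52, STC1 at 8.53 and MGLL at 8.12. In EV cells the same ratio was 1.1 in the median gene. The order of means was TRB T3, EV T3, EV vehicle, TRB vehicle in 61 genes and TRB T3, EV vehicle, EV T3, TRB vehicle in 27, of which the rule itself fixed the place of TRB against EV within each treatment. Among genes called at least 2-fold higher with T3 in TRB cells, 30 of 65 from this set (46.2%) rose with T3 in EV cells too, against 75 of 230 other genes at or above the floor (32.6%); that difference was not tested.

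**Figure D3:**
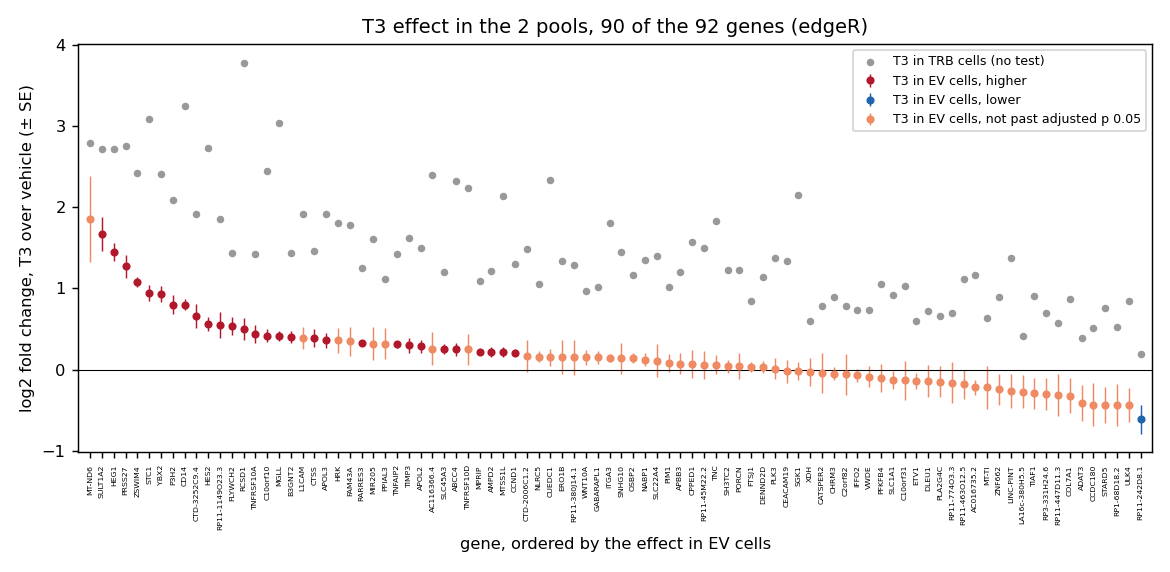
Log2 fold change of T3 over vehicle (y axis) in EV cells with its SE (coloured) and in TRB cells (grey, no test), for 90 of the 92 genes ordered by the EV effect (x axis); MT-RNR1, at -5.66 in EV cells, and 1 gene not reported here are left off. Red genes were called higher in EV cells, the blue gene lower and orange ones not called; every grey point lies above the coloured one of its gene.

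Of 35 T3-responsive genes listed none met the rule, which 0.762% of the 12068 genes did, so little can be read from that count. Of the 27 measured, 16 rose and 4 fell with T3 in TRB cells (22.4% and 21.9% of all genes), while 6 rose and 3 fell in EV cells (2.84% and 1.7%). Compared with EV, 14 were higher and 7 lower in TRB cells under T3 (21.0% and 19.7%), and 3 were higher and 4 lower under vehicle (7.86% and 7.4%). Of those 4, 3 were also higher under T3, the signs of the 92 genes, as for 1.45% of all genes. Under vehicle their differences were too small to meet the rule. UCP2, a mitochondrial uncoupling protein gene, had 5098, 5174 and 4828 normalized counts in TRB T3 libraries, against 2560, 2480 and 2562 in EV T3, and 1761, 1747 and 1617 in TRB vehicle libraries, against 1923, 1891 and 2075 in EV vehicle. Its TRB over EV log2 fold change was 1.0 ± 0.04 with T3 (edgeR adjusted p = 2.13e-34) and -0.2 ± 0.04 under vehicle (edgeR adjusted p = 0.000598). The others were BCL3, an IkappaB family gene, at 0.86 with T3 and -0.22 under vehicle, and ATP2A2, the gene of a calcium pump of the endoplasmic reticulum, at 0.19 and -0.15 (edgeR adjusted p = 0.00313 and 0.00242 under vehicle). KLF9, a transcription factor gene directly induced by T3, had 234, 238 and 241 normalized counts in TRB T3 libraries, against 93, 127 and 124 in EV T3, and 22, 26 and 17 in TRB vehicle libraries, against 21, 33 and 24 in EV vehicle. Its vehicle libraries overlapped, with a TRB over EV log2 fold change of -0.27 ± 0.27 (edgeR adjusted p = 0.581). FURIN, a proprotein convertase gene, had 1461, 1532 and 1428 in TRB T3 libraries, against 314, 289 and 303 in EV T3, and stood at -0.06 ± 0.08 without hormone (edgeR adjusted p = 0.714).

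Among 25 measured receptor partners and coregulators, 4 were lower in TRB than in EV cells under vehicle by edgeR's test (7.4% of all genes), and 9 were higher and 3 lower under T3 (21.0% and 19.7%). The corepressor gene NCOR1 was lower under vehicle by log2 -0.13 ± 0.04 (edgeR adjusted p = 0.0392), and had 1428, 1407 and 1430 normalized counts in TRB vehicle libraries, against 1580, 1538 and 1554 in EV vehicle. Under T3 its difference was -0.03 ± 0.04 and did not pass (edgeR adjusted p = 0.53).

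Other genes of glycerolipid and endocannabinoid turnover were mixed. Of 20 measured, MGLL included, 9 rose and 7 fell with T3 in TRB cells (22.4% and 21.9% of all genes), and MGLL was the one that rose in EV cells (2.84%). Against EV, 11 were higher and 2 lower in TRB cells under T3 (21.0% and 19.7%), and 5 were higher and 1 lower under vehicle (7.86% and 7.4%), the lower one being MGLL. FAAH, the gene of fatty acid amide hydrolase, which cleaves the endocannabinoid anandamide, had 636, 652 and 665 normalized counts in TRB T3 libraries, against 404, 368 and 409 in TRB vehicle, and rose by 0.73 ± 0.06 on the log2 scale (edgeR adjusted p = 4.44e-17). DGAT2, which encodes an enzyme of triglyceride synthesis, rose by 0.91 ± 0.09 with T3 in TRB cells (edgeR adjusted p = 3.42e-13), but was higher than EV under vehicle as well, by 0.66 ± 0.13 (edgeR adjusted p = 0.00011). PTGS1 (1.73), LIPE (0.64), PLIN1 (0.6), PLIN3 (0.52), DAGLB (0.29) and PLIN2 (0.27) were the others that rose with T3 in TRB cells, against 3.03 for MGLL, on the same scale. PTGS1 and PLIN1 were counted low. PTGS1 had 20, 32 and 25 normalized counts in TRB T3 libraries, against 6, 8 and 10 in TRB vehicle. PLIN1 had 28, 31 and 37, against 14, 26 and 23. ABHD12, another monoacylglycerol hydrolase gene, fell by 0.23 ± 0.07 on the log2 scale in TRB cells with T3 (edgeR adjusted p = 0.00349), and DAGLA, whose product makes 2-arachidonoylglycerol, fell by 0.43 ± 0.13 (edgeR adjusted p = 0.00494). The hydrolase gene ABHD6 had 39, 47 and 38 normalized counts in TRB T3 libraries, against 50, 44 and 49 in TRB vehicle, and did not pass.

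Not every gene of the set showed hormone induction or a difference beyond its libraries. In 42 of the 92 at least 1 group mean was under 50 normalized counts. MT-RNR1 met both ratios but had 1319, 1094 and 901 in TRB T3 libraries, against 675, 513 and 846 in EV T3, and 23184, 15782 and 41750 in TRB vehicle libraries, against 70812, 7234 and 25405 in EV vehicle. The EV vehicle libraries thus spanned the TRB vehicle ones on both sides, and in both populations this RNA was far lower with T3 (-5.66 ± 0.88 in EV cells, edgeR adjusted p = 0.00891, but 0.0583 without EV T3 replicate 2). The unnamed locus RP11-242D8.1 was the other gene called lower in EV cells (-0.61 ± 0.18, edgeR adjusted p = 0.0349, and between 0.0599 and 0.18 without EV T3 replicates 2 or 3 or any EV vehicle replicate). For RP11-242D8.1 DESeq2 gave an adjusted p of 0.124, and edgeR on thinned counts 0.143. The choice of genes can itself favour a lower level with T3 in EV cells, so nothing is read from these lower calls. MT-ND6, a respiratory chain subunit gene, had 532, 684 and 1023 in TRB T3 libraries, against 772, 595 and 352 in EV T3, and overlapped under vehicle as well.

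Libraries did not contribute evenly to the low genes. In 15 of the 92 TRB T3 replicate 3 was at least 1.25 times both other TRB T3 libraries, against 2.07% of genes at or above the floor, and 12 of these 15 were among the 42 low genes. The rule favours a high TRB T3 mean, so 1 high library can bring a low gene in. The 2.07% is over genes of all levels above the floor and not over low genes alone. AC116366.4, the unnamed locus with the largest smaller margin, had 113, 113 and 170 normalized counts in TRB T3 libraries, against 66, 52 and 62 in EV T3, and 21, 20 and 36 in TRB vehicle libraries, against 49, 48 and 52 in EV vehicle. LINC-PINT, a long noncoding RNA gene, had 73, 52 and 105 in TRB T3 libraries, against 51, 44 and 44 in EV T3, and 29, 27 and 33 in TRB vehicle libraries, against 64, 56 and 49 in EV vehicle. TRB T3 replicate 3 also had the highest share of alignments outside genes, 39.24%, with EV vehicle replicate 1 next at 38.87%. Any link to the low genes was not tested. Without TRB T3 replicate 3, 82 of the 92 met the rule.

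**Figure D4:**
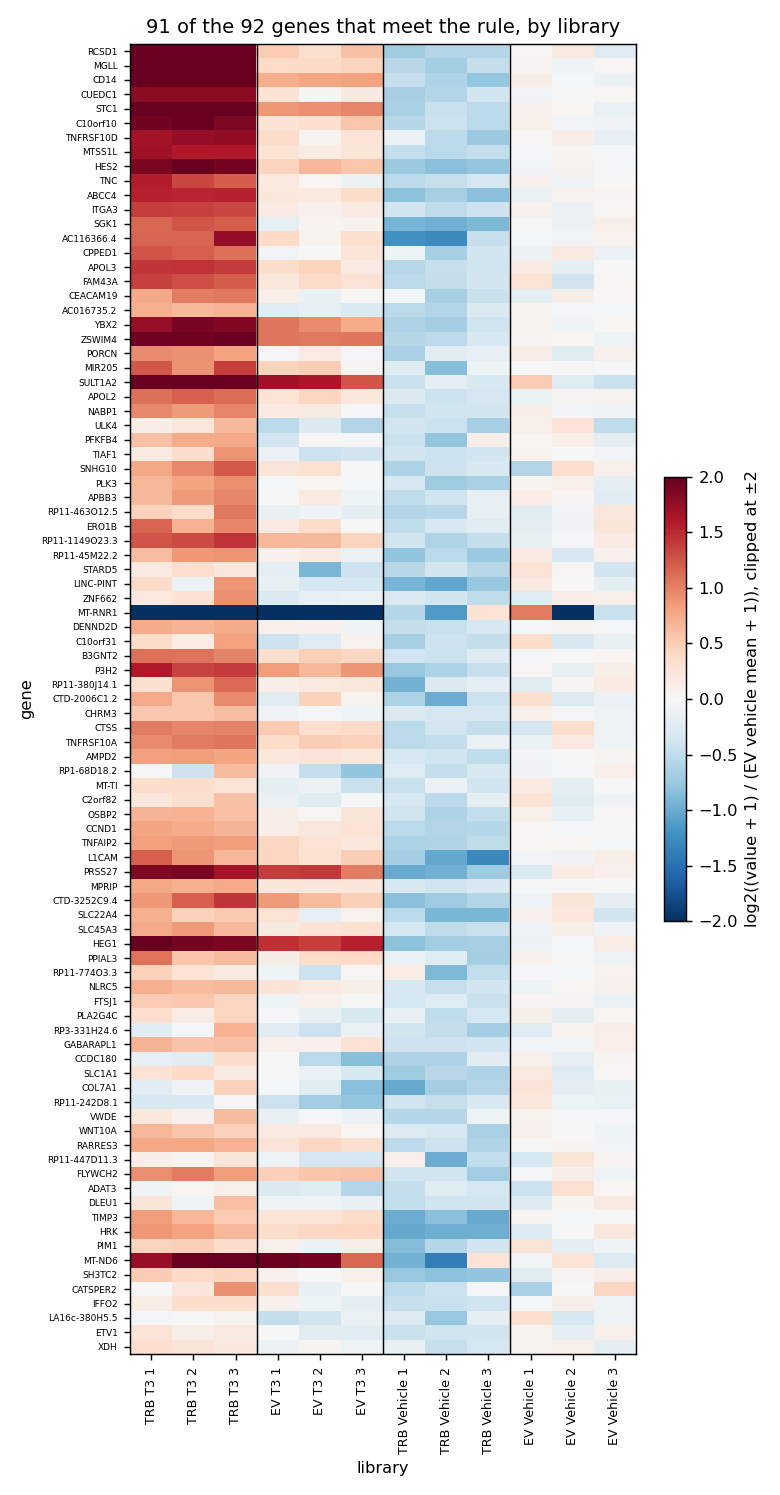
Each row is a gene, 91 of the 92 in all, ordered by the TRB over EV ratio under T3, and each column 1 library; colour is log2 of the value plus 1 over the EV vehicle mean plus 1, clipped at 2 either way. The TRB T3 columns are red and the TRB vehicle columns blue for most rows, the row of MT-RNR1 is blue in all 6 T3 columns, and several low rows are reddest in TRB T3 replicate 3.

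MIR205, the gene of a microRNA known as an epithelial marker, was counted at 97, 76 and 107 in TRB T3 libraries, against 55, 57 and 42 in EV T3, and at 34, 22 and 38 in TRB vehicle libraries, against 40, 41 and 40 in EV vehicle, on the normalized scale. The groups did not overlap within either treatment. Libraries of this kind count the precursor or its host transcript and not the mature form, whose arms are shown from RefSeq (chromosome 1, plus strand) with the seed, bases 2 to 8, in capitals.
hsa-miR-205-5p: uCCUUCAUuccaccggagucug
hsa-miR-205-3p: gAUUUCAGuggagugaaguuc

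At the edge of the vehicle threshold, CATSPER2 and SULT1A2 were inside at 0.8 times EV, and TNFRSF11A and PRR5L outside at 0.802 each. At the edge of the T3 threshold, ETV1 and XDH were inside at 1.26 times EV, and ITPR1 and F2RL1 outside at 1.24 each. PRR5L, with means of 612.3 in TRB T3, 237.0 in EV T3, 106.7 in TRB vehicle and 133.0 in EV vehicle libraries, lay just outside.

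In the GENCODE 29 annotation of GRCh38, 73 of the 92 names were matched to 1 entry, and 68 of these were protein-coding genes. Of the 73, 11 lay on chromosome 1, 8 on chromosome 3 and 3 on the mitochondrial genome. Another gene overlapped on the opposite strand for 35 of the 73; as the sources used here do not give the strand setting of the counting, reads of such pairs cannot be told apart. MGLL, SGK1 and RCSD1 are among them.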

How the data were processed

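RNA was sequenced from 12 libraries, 3 in each of 4 groups. Per the labels' protocols, RNA was extracted with Trizol and the NEBNext Ultra II RNA kit was used. CASAVA 1.7, STAR 2.7, HTSeq 0.10, DESeq2 and the build hg38 are named per the submitters' processing notes; strand setting and annotation are not given in the sources used here. The counts the authors deposited are whole numbers, 1 file a library. A deposited table of normalized values (a score) equalled the counts times 1 factor per library, rounded, within 0.847 for every gene. Lines naming no gene, 31.87% to 39.24% of alignments, stayed out of library sizes and tests.

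The rule was applied to the normalized values. Counts were tested with edgeR 4.0.16 in R 4.3.3 (filterByExpr, TMM, quasi-likelihood test, a single model of the 4 groups leaving 8 degrees of freedom, Benjamini-Hochberg over 14549 genes, threshold 0.05); an SE was taken as the fold change on the log2 scale divided by the square root of F, and the step was tested on simulated data. Members and lists were chosen with earlier results of these data known. Named genes were MGLL, the 20 with the largest smaller margin, up to 6 called each way for T3 in EV cells, those nearest each threshold, KLF9 and THRB; genes named by role or for their libraries were chosen after their values were seen. Correlations with MGLL were left out, since TRB T3 libraries form a cluster of their own. Alternatives were DESeq2 1.42.0, RLE, other filters, EV libraries alone, thinned counts, a replicate block, other forms of the rule, and each library left out. Values of 1 of the 92 genes and of single genes of the lists are not reported here; counts include them.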

Additional observations from a re-analysis of the deposited data

How the results depend on the processing

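The number of genes that met the rule was 1307 with no floor on the means, 50 with a floor of 50 and 48 with ratios of 0.75 and 1.333. Leaving out 1 library gave 85 to 120 genes; of the 92, between 72 and 92 were among them. With counts thinned to the shallowest library 121 genes met the rule, 72 of them among the 92, and with medians 103, 71 of them among the 92. The count of these genes higher with T3 in EV cells was 18 to 30 with 1 library left out, and the count lower was 0 to 2; without EV T3 replicate 2, where edgeR called 0 lower, 4 were lower at an unadjusted p under 0.05, against 4 in the full data. The count lower was 1 by DESeq2, with no filter on low counts, in EV libraries alone and in thinned counts. Group means are the same with or without a block in this balanced design. Same-numbered libraries did not deviate together (correlations from -0.124 to 0.083, with 6 of 12 libraries closest to their own number), and a fit with the replicate block called 30 higher and 2 lower. For named genes, 23 of 551 other fits of the T3 effect in EV cells lost the call, all of ABCC4, RCSD1, MT-RNR1 or RP11-242D8.1. A further 16 fits, of 7 genes not called, changed sign near 0 (adjusted p 0.795 or more). With 1 library left out, the log2 fold change ran from -0.08 to 0.06 for SGK1, -0.1 to 0.08 for PLK3, -0.08 to 0.15 for RP11-45M22.2, -0.02 to 0.32 for CTD-2006C1.2, -0.3 to 0.04 for C10orf31, -0.13 to 0.03 for XDH and -0.21 to 0.28 for CATSPER2. Thinned counts gave -0.09 for RP11-45M22.2 and 0.18 for CATSPER2, which was at 0.0 with the replicate block. The cause was not tested. In 42 of the 92 a group mean was under 50 normalized counts, where counting error is largest relative to the level.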
